A study of Rattus norvegicus with 6 samples.

Results

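The Anti-Rtl1 miRNAs are the microRNAs cut from 5 hairpins that lie antisense to the imprinted gene Rtl1, namely miR-431, miR-433, miR-127, miR-434 and miR-136. Members were taken by name from the count tables of cultured rat cortical neurons, and all 9 named rows, both arms of 4 hairpins and the single miRNA listed for miR-431, were present among the 649 mature miRNAs counted. The neurons came from embryonic day 18 Sprague-Dawley rats of both sexes and were used at 7 days in vitro according to the labels, whereas a figure legend on this experiment has 6 days. For 20 min they were given brain-derived neurotrophic factor (BDNF) at 100 ng/ml or its vehicle alone, BSA at 0.1%, and each condition has 3 libraries, numbered 1 to 3 by the labels. The libraries of a condition come from independent experiments, and the labels do not say whether a number marks 1 experiment. All cultures, the controls included, were grown in Neurobasal medium with B27 and, by the study's methods, received the antimitotic fluorodeoxyuridine to stop the division of non-neuronal cells. The study asked whether this brief stimulation changes how mature miRNAs are made, and the comparison here is that of BDNF with vehicle for the Anti-Rtl1 hairpins and their arms.

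The Dlk1-Dio3 domain is imprinted, which means that its genes are read from only one parental chromosome. Rtl1, a gene derived from a retrotransposon, is expressed from the paternal copy, whereas the miRNAs antisense to it are made from a long noncoding transcript of the maternal copy. Because they match Rtl1 perfectly, these miRNAs can direct the cleavage of Rtl1 mRNA, and the locus is strongly expressed in brain. Each hairpin is cut by Drosha and Dicer into a duplex with a 5′ arm (5p) and a 3′ arm (3p), and the strand that is loaded into an Argonaute protein is usually the one that accumulates.

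In the rat genome build GRCr8, RefSeq places the 5 hairpins on the plus strand of chromosome 6 within 4968 bases, chr6:134326449-134331416. All of them lie inside the annotated interval of Rtl1, chr6:134325231-134335780, and downstream of the noncoding gene Meg3, which ends at position 134306249. Mir431 comes first, at chr6:134326449-134326562, and Mir433 follows 795 bases later, at chr6:134327358-134327450. Mir127 lies at chr6:134328454-134328550, Mir434 at chr6:134330402-134330482 and Mir136 at chr6:134331335-134331416. Mature sequences were matched by name for 7 of the 9 members, not including rno-miR-127-5p and rno-miR-136-5p, and are shown 5′ to 3′ to let the seeds be compared. Capitals mark the seed, bases 2 to 8, which pairs with target mRNAs.
rno-miR-431: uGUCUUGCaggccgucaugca
rno-miR-433-5p: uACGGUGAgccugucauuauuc
rno-miR-433-3p: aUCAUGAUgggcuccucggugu
rno-miR-127-3p: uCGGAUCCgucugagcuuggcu
rno-miR-434-5p: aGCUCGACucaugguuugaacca
rno-miR-434-3p: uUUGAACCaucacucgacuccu
rno-miR-136-3p: cAUCAUCGucucaaaugagucu

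No seed was shared among these 7 miRNAs, and none was shared with any other of the 693 rat mature miRNAs in the RefSeq table, so each of the 7 formed a seed group of its own. Over bases 2 to 7 alone, miR-431 shared its sequence with miR-331-5p. The closest other mature sequence in the table differed from each of the 7 by at least 6 mismatches when shifted by up to 3 bases. The authors' alignment allowed 1 mismatch. Of the 649 miRNAs counted, 583 had a sequence in the table, and the rest were not compared. A U opens 4 of the 7, miR-431, miR-433-5p, miR-127-3p and miR-434-3p, as it does 36.2% of the mature sequences in the table. The first 9 bases of miR-434-3p recur from base 15 of miR-434-5p, a repeat within 1 hairpin. On the opposite strand RefSeq annotates a further hairpin, Mir3543, over Mir434, and its mature sequence is complementary to all 22 bases of miR-434-3p. MiR-3543 was not among the miRNAs counted.

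The hairpins Mir127, Mir433 and Mir136 are printed, with the mature sequences that RefSeq annotates in capitals. Mir127 gives the most abundant member. The arm ratio of Mir433 did not overlap between BDNF and control libraries. That of Mir136 varied least over the libraries among the hairpins with both arms counted.
Mir127: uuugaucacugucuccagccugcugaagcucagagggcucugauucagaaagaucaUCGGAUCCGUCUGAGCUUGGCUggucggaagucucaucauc
Mir433: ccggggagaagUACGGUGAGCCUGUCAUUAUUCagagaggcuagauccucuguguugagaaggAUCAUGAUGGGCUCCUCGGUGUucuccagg
Mir136: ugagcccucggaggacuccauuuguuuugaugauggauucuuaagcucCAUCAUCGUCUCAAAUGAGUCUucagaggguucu

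Total counts ranged from 10374120 to 12533029 per library, and values are given in RPM, reads per 1000000 of a library's total, so that 10 RPM stood for 104 to 125 reads. The 6 miRNAs taken here as neuronal markers were miR-124-3p, miR-9a-5p, miR-9a-3p, miR-128-3p, miR-137-3p and miR-153-3p. They summed to between 347556 and 406228 RPM in control and between 386016 and 424408 RPM in BDNF libraries. Markers of oligodendrocytes summed to at most 37.6 RPM, those of microglia and myeloid cells to at most 2.66, of endothelium to at most 101, of mural cells to at most 103 and of erythroid cells to at most 7.71, and every marker listed had counts in every library. A single miRNA, miR-9a-5p, held 25.0 to 33.1% of a library and was most of the neuronal sum. Whether the 6 are specific to neurons was not tested, so their sum does not give the share of neurons. The myeloid marker miR-223-3p was not among the miRNAs counted, and no marker of astrocytes was included. In a bulk culture of this kind, fewer cells of a type and less RNA per cell cannot be told apart.

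The Anti-Rtl1 miRNAs together made up 2.38 ± 0.20% of the miRNA counts in control (SD, n = 3) and 2.48 ± 0.26% in BDNF libraries (SD, n = 3), and most of this came from a single miRNA. Rno-miR-127-3p, long studied as a brain-enriched miRNA, stood at 16237, 13539 and 15255 RPM in control replicates 1 to 3 and at 15351, 14192 and 17742 RPM in the BDNF replicates. By mean RPM over the 6 libraries it ranked 13 of 649. The miR-127 hairpin as a whole supplied between 71.0 and 74.3% of all Anti-Rtl1 counts. MiR-434 followed with 15.5 ± 2.4% in control (SD, n = 3), miR-136 with 7.58 ± 1.59% (SD, n = 3) and miR-433 with 4.40 ± 0.76% (SD, n = 3), whereas miR-431 supplied 0.080 ± 0.014% (SD, n = 3).

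**Figure D1:**
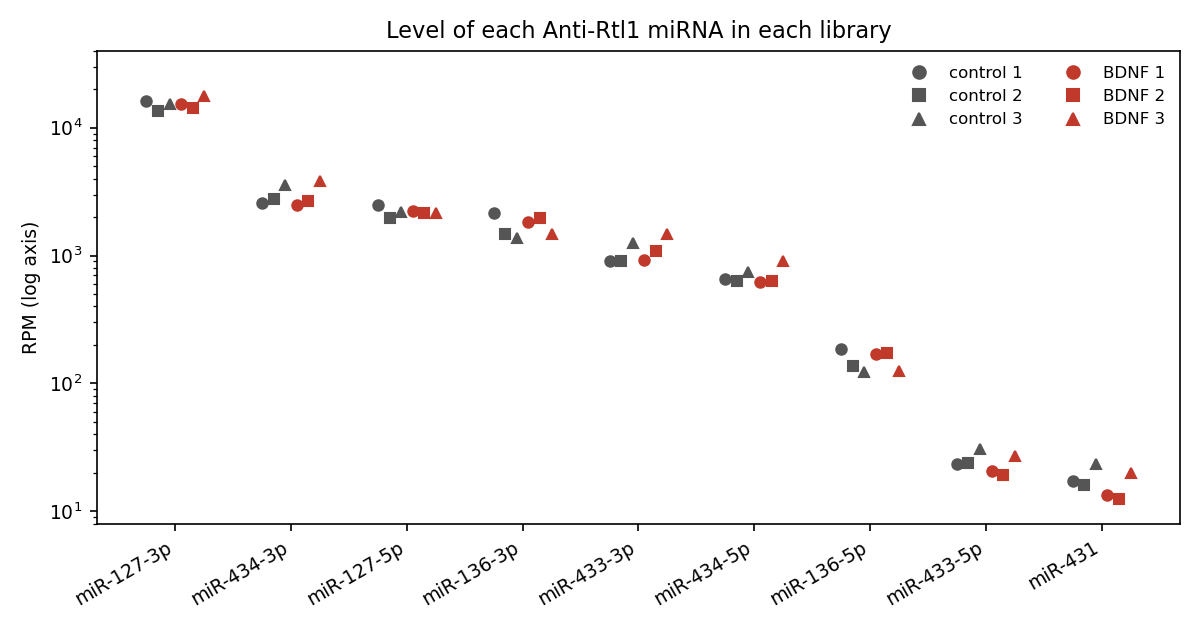
RPM on a log axis for the 9 Anti-Rtl1 miRNAs, ordered by their mean; each point is 1 library, grey for control and red for BDNF, with the replicate number given by the symbol. MiR-127-3p lies above all others in every library, at 13539 RPM or more, and miR-433-5p and miR-431 lie at the bottom, at 30.5 RPM or less.

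The order of the 9 levels was the same in each of the 6 libraries. After miR-127-3p came rno-miR-434-3p, at 2488 to 3808 RPM, and rno-miR-127-5p, at 1973 to 2506 RPM, which overlapped each other over the libraries. Next were rno-miR-136-3p, at 1365 to 2145 RPM, and rno-miR-433-3p, at 905 to 1466 RPM, each again overlapping the neighbour above it. Rno-miR-434-5p (619 to 903 RPM) and rno-miR-136-5p (122 to 187 RPM) did not overlap the levels above and below them. The highest value of miR-434-5p, 903 RPM, nearly met the lowest of miR-433-3p, 905 RPM. The lowest pair, rno-miR-433-5p at 19.2 to 30.5 RPM and rno-miR-431 at 12.5 to 23.6 RPM, overlapped. The mean of miR-127-3p was 896-fold that of miR-431, a ratio of reads, since the efficiency with which each sequence entered the libraries was not measured. All 9 miRNAs exceeded a mean of 10 RPM in at least one condition and entered the test, the last 2 ranking 285 and 303 of 649.

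In all 4 hairpins with both arms counted, the 3p arm was the more abundant in every library. MiR-434 was the most balanced, with 3.97 to 4.81 reads of miR-434-3p for each read of miR-434-5p. For miR-127 the 3p arm was 6.48- to 8.25-fold higher than the 5p arm, and for miR-136 it was 10.6- to 11.8-fold higher. The arms of miR-433 were the most unequal, with 38.1 to 56.2 reads of miR-433-3p for each read of miR-433-5p. Ranges of these 4 folds did not overlap, so the hairpins kept their order of imbalance in all libraries. Across all 83 precursors with both arms above 10 RPM, the 3p arm prevailed in every library for 33, or 39.8%.

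No Anti-Rtl1 miRNA differed between BDNF and control beyond the spread of the replicates in the fit without a block. In edgeR's quasi-likelihood test, fitted to all 336 miRNAs that passed the filter, none of the 9 had an unadjusted P-value below 0.05, where 2.98% of all miRNAs tested did. After adjustment the count was 0 of 9, and 0.0% of all miRNAs tested passed. DESeq2 likewise left 0 of the 9 below 0.05, unadjusted or adjusted. Their log2 fold changes (BDNF against control) ran from -0.30 to 0.20, with a median of 0.09 against -0.0015 for all 336, and 6 were positive and 3 negative. The 95% intervals of the 9 together reached from -0.72 to 0.69. In normalized RPM (RPM divided by edgeR's TMM scaling factor), the control and BDNF libraries overlapped for all 9 members, whereas 7.14% of all miRNAs tested had no overlap.

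**Figure D2:**
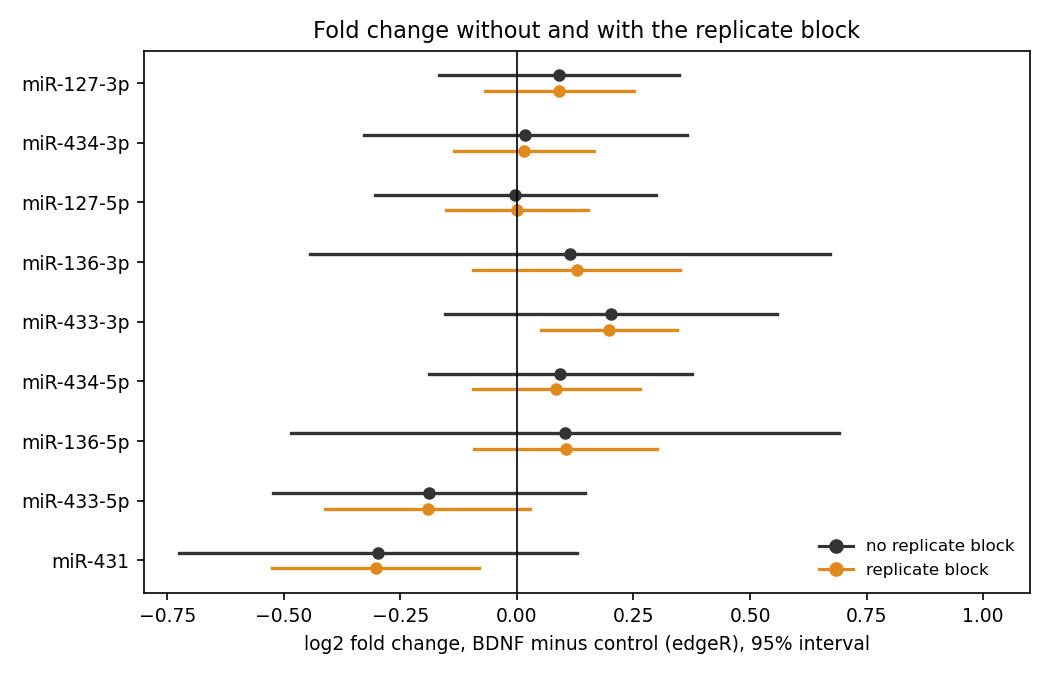
Log2 fold change of each Anti-Rtl1 miRNA, BDNF minus control, from edgeR's quasi-likelihood test (points) with its 95% interval (lines), without (black) and with (orange) the replicate number as a block. Without the block every interval includes 0; with it, those of miR-433-3p (0.05 to 0.34) and miR-431 (-0.53 to -0.08) do not.

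Over all miRNAs tested, the libraries that share a replicate number deviated together from their group means, and the fit was therefore repeated with that number as a block. Over the 9 members alone the correlation was 0.91 for number 1 and 0.97 for number 3 but 0.23 for number 2, and BDNF replicate 2 correlated by 0.86 with control replicate 1. With the block, 2 of the 9 members had an unadjusted P-value below 0.05, a share close to the 20.5% of all 336 miRNAs tested, and none of the 9 or of the 336 (0.0%) had an adjusted P-value below 0.05. By pairs in normalized RPM, 4 of the 9 members moved the same way in all 3 replicate numbers, against 39.9% of all miRNAs tested. These 4 were miR-127-3p and miR-433-3p, with ratios above 1, and miR-431 and miR-433-5p, with ratios below 1. For miR-127-3p this held only after scaling. Its normalized ratio for number 1 was 1.01, whereas in plain RPM BDNF replicate 1 (15351) lay below control replicate 1 (16237).

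MiR-431, known for a part in axon growth, was the member with the largest difference by size. The 3 control libraries held 181, 203 and 245 reads of it and the 3 BDNF libraries 157, 141 and 237, in the order of their numbers, where counting alone gives a relative error of 6.4 to 8.4%. In normalized RPM these are 17.5, 17.0 and 21.8 in control and 14.5, 12.9 and 18.4 in BDNF libraries. BDNF replicate 3 lay above control replicates 1 and 2, so the groups overlapped, although each BDNF library lay below the control library with its own number. The ratios by number were 0.83, 0.76 and 0.84. EdgeR's quasi-likelihood test put the log2 fold change at -0.30 (standard error 0.18, P-values 0.14 unadjusted, 0.999 adjusted). The replicate block left it at -0.30 (standard error 0.10), and edgeR then gave P-values of 0.014 unadjusted and 0.17 adjusted. Without single libraries and without the block, edgeR's value ranged from -0.45, without BDNF replicate 3 (P-values of 0.040 unadjusted and 0.833 adjusted), to -0.16, without control replicate 3 (unadjusted P-value 0.43). Without BDNF replicate 2 it was -0.19, and only the first of the 6 fits passed an unadjusted 0.05.

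**Figure D3:**
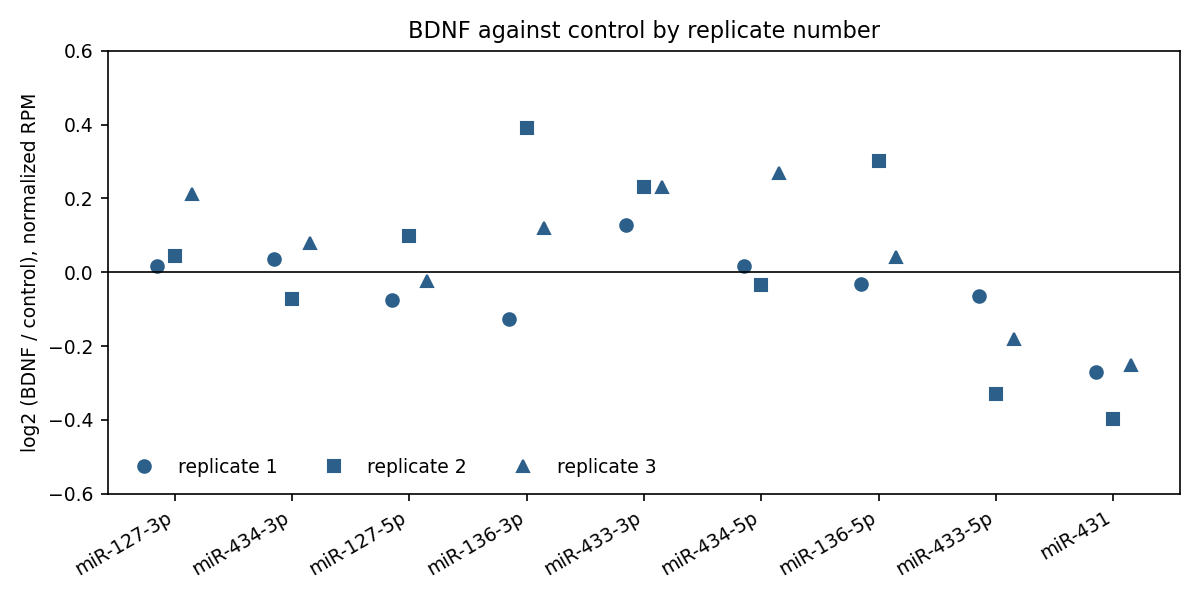
Log2 ratio of normalized RPM in the BDNF library to that in the control library with the same replicate number, for the 9 Anti-Rtl1 miRNAs; each point is 1 pair and 0 means no difference. MiR-127-3p and miR-433-3p lie above 0, and miR-433-5p and miR-431 lie below 0, in all 3 pairs. Both arms of miR-136 lie on both sides.

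In miR-433 the means of the arms differed in opposite directions, the 3p arm being higher and the 5p arm lower with BDNF, neither beyond the spread of the replicates in the fit without the block. Rno-miR-433-3p, the abundant arm, stood at 911, 949 and 1152 normalized RPM in control replicates 1 to 3 and at 996, 1115 and 1352 in the BDNF replicates. Each BDNF library lay above the control library of its number, by factors of 1.09, 1.17 and 1.17, while the groups overlapped. EdgeR put its log2 fold change at 0.20 (standard error 0.15, P-values 0.22 unadjusted, 0.999 adjusted). The replicate block left it at 0.20 (standard error 0.06), with P-values of 0.014 unadjusted and 0.17 adjusted in edgeR. Without single libraries and without the block the value ranged from 0.072, without BDNF replicate 3, to 0.32, without control replicate 3, with none of the 6 fits below an unadjusted 0.05. Rno-miR-433-5p, the rare arm, had 243, 298 and 316 counts in control and 243, 217 and 321 in BDNF libraries. Its normalized RPM of 23.4, 24.9 and 28.2 in control and 22.4, 19.8 and 24.9 in BDNF libraries overlapped, with ratios by number of 0.96, 0.80 and 0.88. For this arm edgeR gave a log2 fold change of -0.19 (standard error 0.14, P-values 0.22 unadjusted, 0.999 adjusted), and P-values of 0.079 unadjusted and 0.32 adjusted with the block.

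The ratio of the miR-433 arms, which does not depend on library size, did not overlap between the conditions. The log2 5p/3p ratio was -5.28, -5.25 and -5.35 in control replicates 1 to 3 and -5.47, -5.81 and -5.76 in the BDNF replicates, so that all BDNF libraries lay below all control libraries, as for 6.02% of the 83 precursors (no overlap in either direction). As shares, miR-433-5p made up 2.51% (95% exact Clopper-Pearson interval 2.21 to 2.84), 2.56% (2.28 to 2.86) and 2.39% (2.13 to 2.66) of miR-433 reads in control libraries. In BDNF libraries it made up 2.20% (1.94 to 2.49), 1.75% (1.52 to 1.99) and 1.81% (1.62 to 2.01). These intervals cover counting error only, and that of BDNF replicate 1 overlapped all 3 control intervals, whereas those of BDNF replicates 2 and 3 overlapped none. On the log2 scale the control libraries averaged -5.29 ± 0.05 (SD, n = 3) and the BDNF libraries -5.68 ± 0.18 (SD, n = 3).

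A limma fit over the 83 precursors gave a change of -0.39 (standard error 0.17, 95% interval -0.77 to -0.01) for miR-433. Its unadjusted P-value in limma was 0.047, as 3.61% of the precursors had a value below 0.05, and its adjusted P-value was 0.956, where 0.0% of the precursors passed. In the limma fit with the replicate block, its unadjusted P-value was 0.022, where 12.0% of the precursors were below 0.05, and its adjusted P-value was 0.27, where again 0.0% passed. The direction was the same in all 3 numbers, with changes of -0.19, -0.56 and -0.41, as it was for 38.6% of the precursors. Only the fit without BDNF replicate 1 kept the unadjusted P-value below 0.05 when single libraries were left out. It rose to 0.070, 0.139 and 0.074 in limma without control replicates 1, 2 and 3, and to 0.169 and 0.110 without BDNF replicates 2 and 3.

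**Figure D4:**
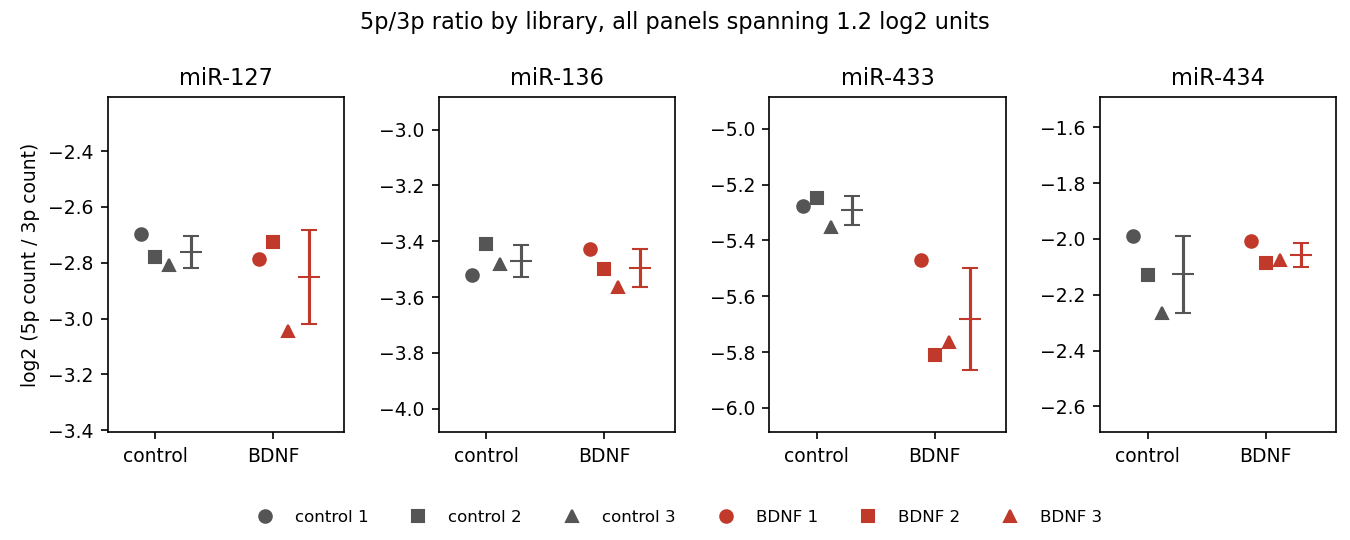
Log2 ratio of 5p to 3p counts for the 4 Anti-Rtl1 hairpins with both arms listed; each point is 1 library, and the bars beside the points give the mean and SD of the 3 libraries of a condition. The BDNF libraries of miR-433 lie at -5.47 or below and its control libraries at -5.35 or above, whereas the conditions overlap for miR-127, miR-136 and miR-434.

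For the other 3 hairpins the arm ratio of the BDNF libraries overlapped that of the control libraries. MiR-136 averaged a log2 5p/3p ratio of -3.47 ± 0.06 in control libraries and -3.50 ± 0.07 in BDNF libraries (SD, n = 3 each). Its change of -0.02 had a 95% interval of -0.29 to 0.24 in limma. For miR-127 the means were -2.76 ± 0.06 and -2.85 ± 0.17 (SD, n = 3 each), a change of -0.09 with an interval of -0.38 to 0.20. BDNF replicate 3 stood apart here with a log2 ratio of -3.04, and without it the change was 0.004. MiR-434 had means of -2.13 ± 0.14 and -2.06 ± 0.04 (SD, n = 3 each), a change of 0.07 with an interval of -0.20 to 0.34. Adjusted P-values in limma were 0.956 for all 3.

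The replicate numbers differed from each other in most members, and most of all in miR-136. MiR-136-3p stood at 2160, 1538 and 1263 normalized RPM in control replicates 1 to 3 and at 1978, 2016 and 1372 in the BDNF replicates. Both libraries numbered 3 were the lowest of their condition, while replicate 2 was low in control and high with BDNF. MiR-136-5p showed the same arrangement, with 188, 145 and 113 normalized RPM in control and 184, 178 and 116 in BDNF libraries. Over the 6 libraries the log2 level of miR-136-3p had an SD of 0.32 and that of miR-136-5p an SD of 0.34, against a median of 0.19 for all 336 miRNAs, but their log2 ratio had an SD of 0.06, against a median of 0.22 for the 83 precursors. For the other hairpins the SD of the log2 ratio was 0.10 (miR-434), 0.12 (miR-127) and 0.24 (miR-433). The arms of miR-136 thus differed between libraries together and kept their proportion. Their log2 fold changes with BDNF in edgeR were 0.11 (standard error 0.23) and 0.10 (standard error 0.25).

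MiR-434-3p went the other way between the replicate numbers. Its normalized RPM were 2616, 2912 and 3320 in control replicates 1 to 3 and 2682, 2768 and 3511 in the BDNF replicates, highest in both libraries numbered 3. MiR-433-3p was likewise highest in both, as were miR-434-5p, miR-431 and miR-433-5p. MiR-434-5p was close to constant at 659, 666 and 691 in control and 666.97 and 651 in BDNF replicates 1 and 2, and reached 833 in BDNF replicate 3. In contrast, miR-127-5p was lowest in both libraries numbered 3, but in normalized RPM alone. These values were 2523, 2068 and 2016 in control and 2396, 2212 and 1984 in BDNF libraries. In plain RPM miR-127-5p was lowest in both libraries numbered 2, at 1973 in control and 2146 in BDNF, against 2179 and 2152 in those numbered 3. MiR-127-3p, at 14114 to 16549 normalized RPM, had the smallest spread, with an SD of 0.11 on the log2 scale.

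**Figure D5:**
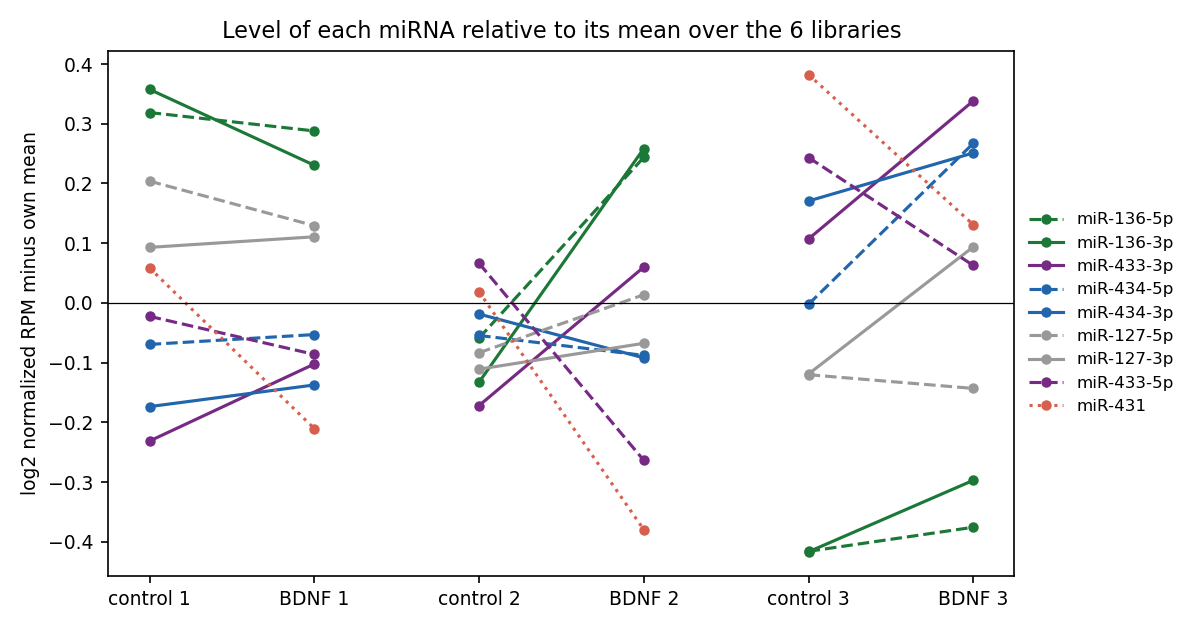
Log2 normalized RPM of each Anti-Rtl1 miRNA minus its own mean over the 6 libraries; lines join the control and BDNF library of the same replicate number, and each colour is 1 hairpin (5p dashed, 3p solid, miR-431 dotted). Both miR-136 arms lie at least 0.23 above their mean in both libraries numbered 1 and at least 0.297 below it in both numbered 3, where miR-434-3p and miR-433-3p lie above theirs.

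Hairpins of the same locus therefore did not keep a fixed proportion to each other. The pairs of hairpins that follow were picked after their values were seen. Reads of miR-434-3p per read of miR-136-3p numbered 1.21, 1.89 and 2.63 in control replicates 1 to 3 and 1.36, 1.37 and 2.56 in the BDNF replicates, a 2.17-fold range. The ratio of miR-434-3p to miR-433-3p ranged only from 2.48 to 3.07, a 1.24-fold range, although miR-127 lies between these hairpins. The mean profile of the 9 members was accordingly almost flat, spanning 0.12 log2 units over the 6 libraries. The miRNAs nearest to that mean profile by root mean square difference over the 6 libraries were miR-486 (0.026 log2 units), miR-329-5p (0.036) and miR-27b-3p (0.037). The members themselves lay farther from it, from 0.066 for miR-127-3p to 0.301 for miR-136-5p, a range that includes the median of 0.188 for all other miRNAs tested.

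The noncoding transcripts of this domain also give rise to miRNAs upstream of Rtl1, on the Meg3 side, and to the large cluster from miR-379 to miR-410, which holds miR-134, known for limiting dendritic spine size. Of 11 miRNAs counted on the Meg3 side, 9 were tested in edgeR, and 1 had an unadjusted P-value below 0.05, miR-673-5p, with a log2 fold change of 0.32 (standard error 0.13, P-values 0.0485 unadjusted, 0.999 adjusted), against 2.98% of all miRNAs tested. Their median log2 fold change was 0.09, with 8 positive and 1 negative, against 165 and 171 for all miRNAs tested. Of 65 miRNAs in the miR-379 to miR-410 cluster, 43 were tested, and 1 was below an unadjusted 0.05 in edgeR, miR-410-3p, at -0.23 (standard error 0.10, P-values 0.0496 unadjusted, 0.999 adjusted). The cluster's median log2 fold change was -0.04, with 14 positive and 29 negative. The miRNAs of these lists were named after their values were seen. With the replicate block, 3 of the 9 Meg3-side miRNAs were below an unadjusted 0.05, all higher (miR-665, miR-673-5p and miR-770-3p), and 8 of the 43 in the cluster, 3 higher and 5 lower, against 20.5% of all miRNAs tested. No adjusted P-value in any of these lists was below 0.05 with or without the block. The Meg3-side miRNAs made up 0.0525 to 0.0722% of a library and the cluster 1.74 to 2.00%, against 2.15 to 2.77% for the 9 Anti-Rtl1 miRNAs.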

How the data were processed

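Small RNA libraries from 3 control and 3 BDNF-treated cultures, which the methods call biological replicates, were sequenced in 1 lane. The authors trimmed the 3′ adapter, discarded reads of low quality, short reads and reads in which no adapter was found, and used Miraligner to map what remained to the mature miRNAs of rat, trimmed and extended variants included. The deposited values are raw read counts for 649 mature miRNAs per library, without normalization. Tool versions and the treatment of reads matching several miRNAs are not given in the sources used here. 

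Conditions and replicate numbers were taken from the sample titles. RPM were computed from column sums. Following the authors' filter, a miRNA was tested if its mean reached 10 RPM in either condition, which left 336, with edgeR 4.0.16 in R 4.3.3 (TMM scaling, quasi-likelihood test, no block). The log2 5p/3p ratio, with 0.5 counts added to each arm, was fitted with limma 3.58.1 for 83 precursors (variance trend on the rarer arm). P-values were adjusted by Benjamini-Hochberg over all features tested. The standard error is the size of the log2 fold change divided by the square root of F. Both fits were tested on simulated data, with planted changes larger than those of the members and with no structure by replicate number. That test cannot tell how the fits treat changes of the size seen here. Libraries of a condition differed by more than sampling noise (chi-square of at least 160 per degree of freedom). Deviations from group means correlated, across the 336 miRNAs, by 0.49 to 0.89 between libraries of the same replicate number and by -0.78 to 0.24 between others. Deviations sum to 0 within a condition, so positive values for the same number force negative ones among the others. The pairing thus comes from the data, over all miRNAs tested, since the labels do not say what a number stands for. P-values with the block rest on the same data. Alternatives were the replicate block, DESeq2 1.42.0, limma on log2(RPM + 1), other scalings and filters, other added counts, and leaving out each library. Members, lists and tests were chosen with earlier results of these data known. All 9 members are named. Other miRNAs are markers, the most abundant miRNA, the 3 nearest in profile or calls of a neighbouring list. In addition, miR-331-5p and miR-3543 are named for their sequences and miR-134 as background. Sequences and positions are RefSeq's, build GRCr8.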

Additional observations from a re-analysis of the deposited data

How the results depend on the processing

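No member had an adjusted P-value below 0.05 under any alternative in edgeR, DESeq2 or limma. The number of members below an unadjusted 0.05 was 0 in the edgeR test and 2 with the replicate block, and 0 under the other scalings, filters and tests. Leaving out single libraries gave 0 to 1. Over all miRNAs tested the number moved from 10 to 69 with the replicate block, to 6 with library size alone, to 5 with a filter of 100 RPM and to 6 with limma on log2(RPM + 1), and ranged from 3 to 32 without single libraries. DESeq2 gave 12. For the 5p/3p ratio, 1 member (miR-433) was below an unadjusted 0.05, under all other settings too, and 0 to 1 without single libraries. Over all precursors the number moved from 3 to 10 with the replicate block and to 6 when both arms needed only a count in every library, and ranged from 1 to 8 without single libraries. Adjusted, none passed.

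Directions near 0 turned. The log2 fold change of miR-127-5p was -0.0033 and became 0.030 with upper-quartile scaling, 0.0083 with RLE scaling and with DESeq2, 0.0022 without a filter and 0.015 with the filter of 100 RPM, and that of miR-434-3p became -0.0085 in limma. Without single libraries miR-127-5p ranged from -0.074 to 0.13, miR-434-3p from -0.11 to 0.13, miR-434-5p from -0.029 to 0.16, miR-136-5p from -0.052 to 0.33 and miR-136-3p from -0.039 to 0.38. The change in 5p/3p ratio ranged from -0.15 to 0.0042 for miR-127 and from -0.059 to 0.0093 for miR-136. MiR-127-3p, miR-431 and both arms of miR-433 kept their direction under every alternative run for them, but their sizes moved by over 1.5 times with single libraries. Without single libraries miR-127-3p ranged from 0.054 (without BDNF replicate 1) to 0.19 (without control replicate 1), miR-431 from -0.45 to -0.16, miR-433-3p from 0.072 to 0.32 and miR-433-5p from -0.27 (without BDNF replicate 3) to -0.099 (without control replicate 3). MiR-127-3p was 0.057 without control replicate 2 and 0.14 without BDNF replicate 2, and miR-433-5p was -0.11 without BDNF replicate 2. The cause of the shifts was not tested.

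The summed level had a log2 ratio of 0.06, and -0.03 to 0.11 without single libraries. The number of neighbours in the order of levels whose ranges overlapped was 4, and 2 to 4 without single libraries, with the order kept. Counting error is largest for miR-431 and miR-433-5p, which the filter of 100 RPM removed.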
